A study of Arabidopsis thaliana with 12 samples.

Results

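Within 3 days of steroid treatment, a small set of transcripts stood higher in steroid-treated than in mock-treated inflorescence tips of Arabidopsis thaliana, and stood higher again on day 7. The members described here are 22 of the 22746 probe sets on the Affymetrix ATH1 array that are no array controls. They were chosen from the day 3 and day 7 signals themselves. Each array was scaled to a common median of 24.8, and log2 was taken after an offset of 4.35 was added. A probe set was kept if the steroid mean exceeded the mock mean by at least 0.58 on this log2 scale (1.49-fold) on day 3 and on day 7. Both steroid arrays also had to lie above both mock arrays on each of these days, and the steroid mean on day 7 had to reach a scaled signal of 25. The rule passed 30 probe sets, or 0.132% of those on the array, and 8 of these were left out by name: 254595_at, 251898_at, 246072_at, 260355_at, 253411_at, 261768_at, REM22 and AT3G11000. Values of days 3 and 7 are therefore given as a description, and only day 1, which the rule did not use, was tested.

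The tips came from plants homozygous for ap1-1 and cal-1 that expressed 35S:AGGR, a fusion of AGAMOUS with the rat glucocorticoid receptor, in steroid and mock groups alike. The 6 groups were steroid and mock tips on days 1, 3 and 7, with 2 independent samples and 2 arrays each, 12 arrays in all. Steroid tips received 10 µM dexamethasone in 0.015% Silwet L-77 and 0.1% ethanol, and mock tips received the Silwet and the ethanol without it. No plants without the fusion were included, so effects of the steroid itself and of the fusion cannot be told apart, and the 35S promoter drives the fusion broadly and not only where AGAMOUS is normally active.

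AGAMOUS is a MADS-domain transcription factor that specifies stamens and carpels and ends the activity of the floral meristem. In ap1 cal double mutants the meristems that should form flowers go on behaving as inflorescence meristems, so the tips carry many young meristems at a similar stage. A fusion to the glucocorticoid receptor is held outside the nucleus until a steroid is applied, and treatment then starts reproductive organ development at one time. Transcripts that first differ on later days can belong to genes regulated further down the chain or to cells of the new organs.

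The arrays differed in brightness and quality between days. Deposited array medians ran from 16.1 to 20.8 for day 1, from 20.1 to 32.2 for day 3 and from 62.6 to 95.2 for day 7. The 3' to 5' GAPDH ratio, a sign of RNA or cRNA quality, was 7.94 and 8.47 in steroid and 4.16 and 11.2 in mock arrays on day 1. Day 3 arrays gave ratios of 6.60 and 15.8 for steroid and 8.36 and 12.2 for mock, and day 7 arrays gave 1.41 and 1.09 for steroid and 1.31 and 1.31 for mock. Day 7 steroid arrays were all read in scan 2 and day 7 mock arrays in scan 1, so a scan effect cannot be told apart from treatment there. On day 3 both mock arrays and steroid replicate 1 shared scan 4. Within that scan the day 3 difference was above 0 in 22 of 22 members, with a median of 0.82, as the rule's demand for arrays that do not overlap fixes. Levels of different days differ in scan and quality as well as in time, so they are set side by side here without a test.

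Of the 22 members, 13 carry a single gene name in the probe table and 9 have no gene there and are given by probe set identifier. All 22 passed the filter on low signals used for the day 1 test, which their steroid day 7 level alone could ensure. The 13 named genes are all protein-coding, with 3 on chromosome 1, 1 on chromosome 2, 4 on chromosome 3, 3 on chromosome 4 and 2 on chromosome 5. No 2 of them were neighbours, the closest pair, AT3G19550 and AT3G25410, lying 812 genes apart in the order of the TAIR10.1 annotation. For only 2 of the 13 does the annotation give a name beyond the locus, EXO and CXE18. Roles of the others are background knowledge of the Arabidopsis genome, given where they are sure.

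The day 3 part of the rule was met by 6.67% and the day 7 part by 3.01% of all probe sets on the array. Among the 11340 probe sets that reached the signal limit, 196 met the day 3 part and 156 the day 7 part, and 30 met both. Those 30 made up 15.3% of the 196 and 19.2% of the 156. Among all that reached the signal limit the shares were 1.73% for day 3 and 1.38% for day 7. The 30 include the 8 left-out probe sets. All these shares come from the values that the rule used, so they are a description and no support for the set.

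The 22 members covered a wide range of differences. On day 3 the steroid minus mock difference in log2 ran from 0.63 to 2.15 with a median of 0.81, and on day 7 from 0.58 to 3.37 with a median of 1.04. All 16511 tested probe sets together had medians of -0.12 on day 3 and 0.000857 on day 7. The difference was larger on day 7 than on day 3 in 16 members and smaller in 6. A difference of at least 1 was reached by 6 members on day 3 and by 12 on day 7. In whole-tip RNA, a difference in the number of cells of a type and a difference in RNA per cell cannot be told apart, for any of these values.

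**Figure D1:**
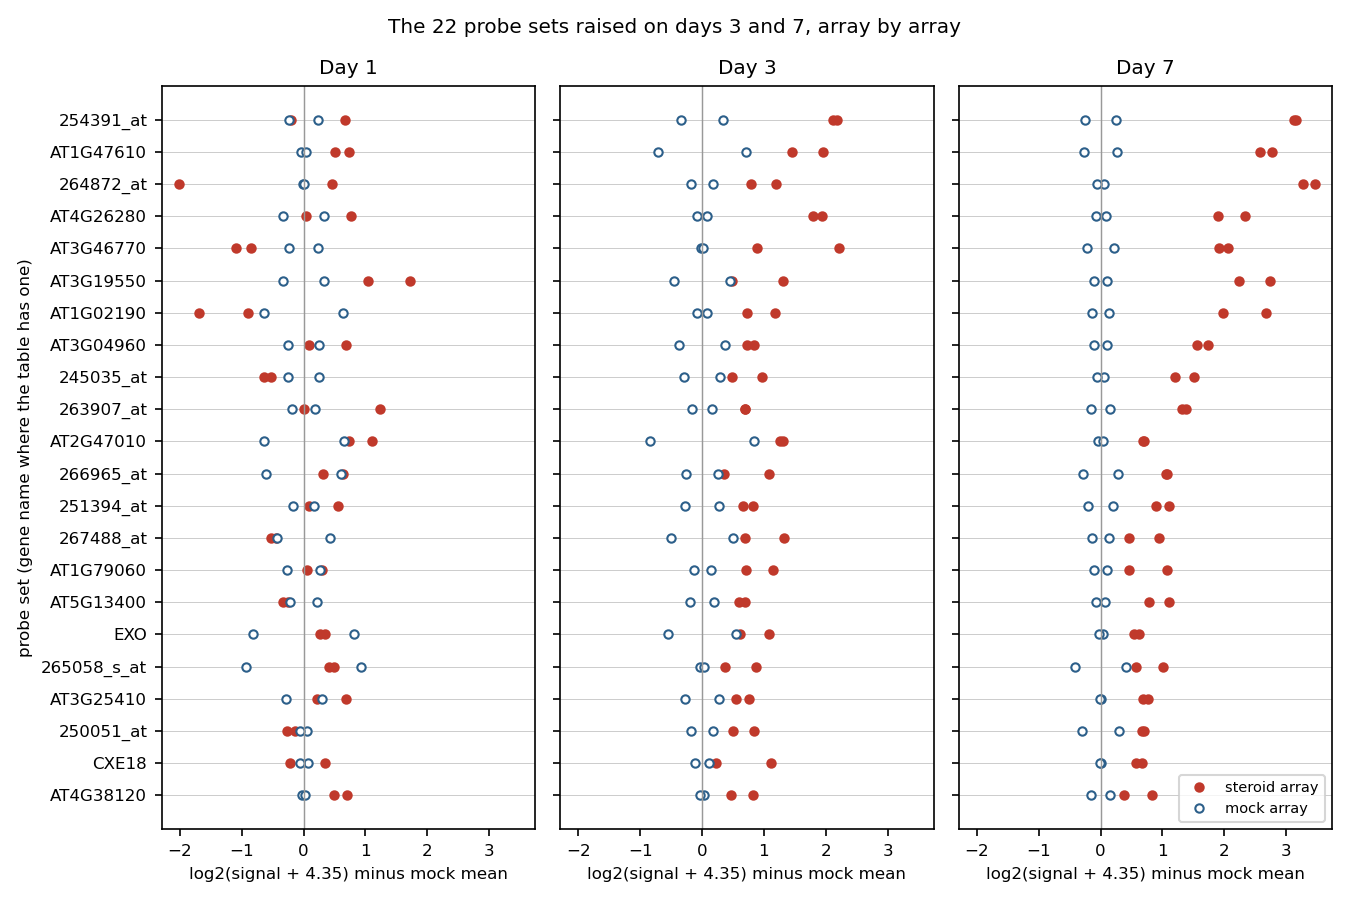
Each row is 1 of the 22 members, ordered by the mean of its day 3 and day 7 differences, and each panel is a day; points give log2(signal + 4.35) of each steroid array (filled) and each mock array (open) minus that day's mock mean. On days 3 and 7 the filled points lie right of the open ones in every row, as the rule requires, while on day 1 they lie right of both in 4 rows, left of both in 6 and among them in 12.

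A first group of 7 members comprised those with the widest gaps between treatments on day 7. Probe set 254391_at, which the probe table leaves without a gene, gave scaled signals of 80.5 and 81.7 in steroid tips on day 7, against 3.74 and 7.19 in mock tips. On day 3 it gave 39.9 and 42.2 in steroid and 8.63 and 3.73 in mock tips, and on day 1 12.5 and 4.88 in steroid and 4.62 and 8.11 in mock tips. The mock arrays stayed under 10 on all 3 days, and the steroid arrays overlapped them on day 1. Its offset-scale differences were 0.24, 2.15 and 3.15 in log2 on days 1, 3 and 7. The unnamed probe set 264872_at had the largest day 7 difference of the 22, at log2 3.37. Its scaled signal was 109 and 95.3 in steroid against 6.35 and 5.52 in mock tips on day 7, and on day 3 it was 39.1 and 28.5 in steroid against 12.5 and 17.2 in mock tips. Its day 1 steroid arrays disagreed, at 1.07 and 26.0, while the mock arrays gave 17.4 and 17.8, and the day 1 groups overlapped.

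AT1G47610, which encodes a WD40-repeat protein, a type of protein that often serves as a scaffold for others, was higher in steroid tips on each day. Its scaled signal was 13.9 and 17.0 in steroid against 8.16 and 8.82 in mock tips on day 1. On day 3 it was 27.1 and 40.4 in steroid against 2.70 and 14.5 in mock tips, and on day 7 56.2 and 48.9 in steroid against 6.38 and 3.02 in mock tips. The 2 groups did not overlap on any day, and the log2 difference was 0.62, 1.70 and 2.67 on days 1, 3 and 7. AT4G26280, a member of the sulfotransferase family, whose enzymes transfer sulfate groups to small molecules, had 10.2 and 19.9 in steroid against 13.6 and 6.92 in mock tips on day 1. Its steroid arrays gave 14.5 and 16.5 on day 3, against 0.75 and 1.40 in mock arrays, and 68.2 and 49.3 on day 7, against 10.9 and 9.30 in mock arrays. Its steroid signal on day 3 thus lay in the range of day 1, and the day 3 difference of 1.87 came with mock arrays far below those of days 1 and 7.

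AT3G46770 encodes a protein with a B3 DNA-binding domain, the domain of the REM group, many of whose genes are expressed in reproductive meristems. Its scaled signal was 33.5 and 29.8 in steroid against 3.42 and 6.23 in mock tips on day 7, and 8.09 and 26.5 in steroid against 2.26 and 2.42 in mock tips on day 3. On day 1 the order was the opposite, with 2.01 and 3.17 in steroid against 11.7 and 7.15 in mock tips. The log2 differences were -0.97, 1.55 and 1.99 on days 1, 3 and 7. REM22, a B3-domain gene left out of the members, had 0.67, 1.88 and 2.98 on the same days. The signs of the 2 genes differed on day 1, whereas both passed the rule, which fixes a positive sign on days 3 and 7.

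AT1G02190, a relative of the wax gene CER1, which is needed to make the alkanes of the plant cuticle was likewise lower in steroid tips on day 1 and higher on the later days. In steroid tips it gave 17.8 and 8.44 on day 1, 37.2 and 52.1 on day 3, then 235 and 143 on day 7. In mock tips it gave 60.2 and 22.3 on day 1, 22.1 and 19.3 on day 3, then 36.7 and 29.6 on day 7. The steroid arrays lay below both mock arrays on day 1 and above both on days 3 and 7, with log2 differences of -1.30, 0.95 and 2.33.

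AT3G19550 differed in where its day 7 difference lay. Its steroid arrays gave 157 and 251 on day 1, 109 and 195 on day 3, then 106 and 152 on day 7. Its mock arrays gave 57.8 and 93.2 on day 1, 55.0 and 106 on day 3, then 20.7 and 17.4 on day 7. The steroid signal was therefore no higher on day 7 than on day 1 (a log2 change of -0.63), the mock signal was lower by then (-1.74), and the treatment differences were 1.38, 0.89 and 2.49 on days 1, 3 and 7. On day 3 the gap between the groups was narrow, since the lower steroid array at 109 stood just above the higher mock array at 106.

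**Figure D2:**
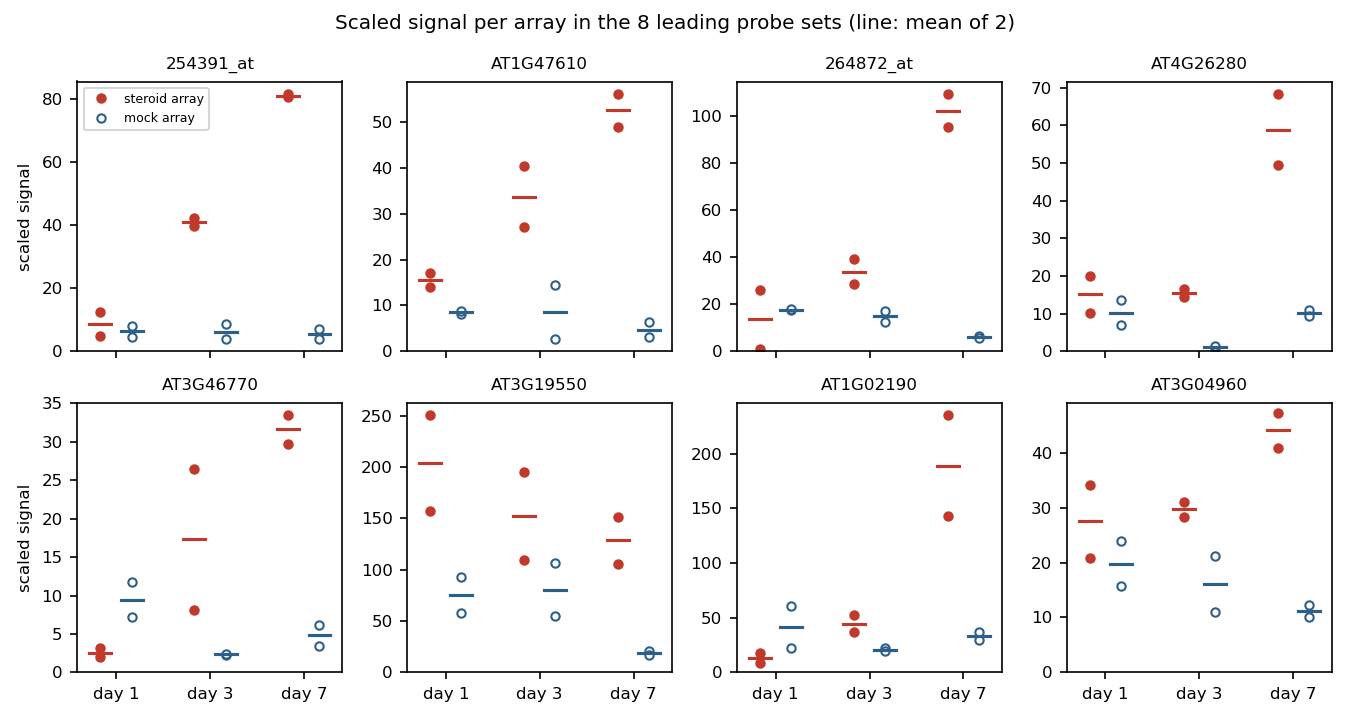
Scaled signal (vertical axis, linear, from 0, with its own range in each panel) of each steroid array (filled) and mock array (open) on days 1, 3 and 7 in the 8 members with the largest mean of the day 3 and day 7 differences; the short lines are means of 2 arrays. The mean steroid signal is highest on day 7 in 7 of the 8, whereas AT3G19550 has its highest steroid mean on day 1, from arrays at 157 and 251, and its lowest mock arrays on day 7, at 20.7 and 17.4.

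Among the other members, AT3G04960 had 40.9 and 47.2 in steroid against 10.0 and 12.2 in mock tips on day 7 (log2 1.65). The unnamed 245035_at had 43.4 and 34.4 in steroid against 13.2 and 11.8 in mock tips on day 7 (log2 1.35), and 263907_at had 28.3 and 27.0 in steroid against 6.87 and 9.61 in mock tips. On day 3 the scaled signals of 263907_at were 4.93 and 4.94 in steroid and 2.05 and 0.75 in mock tips. For 266965_at and 251394_at the day 7 differences were 1.06 and 1.01 and the day 3 differences 0.72 and 0.74. These 5 were larger on day 7 than on day 3, as were all of the genes described above.

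The remaining members differed less on day 7. EXO (EXORDIUM), a gene induced by brassinosteroids and known for promoting cell expansion in leaves, gave scaled signals of 146 and 137 in steroid against 95.3 and 90.9 in mock tips on day 7. On day 3 it gave 82.6 and 58.4 in steroid against 23.7 and 55.7 in mock tips, and on day 1 61.1 and 57.3 in steroid against 24.8 and 85.7 in mock tips. Its log2 differences were 0.31, 0.85 and 0.58 on days 1, 3 and 7, and on day 1 both steroid arrays lay between the 2 mock arrays. CXE18, of the carboxylesterase family of hydrolases, had 130 and 121 in steroid against 80.1 and 79.5 in mock tips on day 7. Its day 3 arrays were close, at 41.9 and 20.6 in steroid against 15.3 and 18.8 in mock tips, and its differences were 0.07, 0.67 and 0.62.

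In both EXO and CXE18 the mock signal was itself higher on day 7 than on day 1, by log2 0.93 and 1.52. The same held for AT2G47010 (2.10) and AT1G79060 (2.06). AT2G47010 had 54.1 and 54.7 in steroid against 30.9 and 33.3 in mock tips on day 7, and its difference was smaller on day 7 (0.69) than on day 3 (1.29). AT1G79060 had 53.1 and 33.1 in steroid against 24.9 and 21.2 in mock tips on day 7, and 7.93 and 12.2 in steroid against 2.48 and 3.92 in mock tips on day 3. The unnamed 267488_at was likewise further apart on day 3 (1.01) than on day 7 (0.70).

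AT5G13400, of the nitrate and peptide transporter family, had 80.5 and 63.5 in steroid against 33.1 and 37.0 in mock tips on day 7. Its steroid signal hardly differed between days, from 60.3 to 80.5 over 6 arrays, while the mock signal was lower on day 7 than on day 1, by -1.04 in log2. AT3G25410, of the family of bile acid and sodium symporters, membrane carriers for organic anions, had 35.5 and 33.1 in steroid against 19.2 and 18.9 in mock tips on day 7. The unnamed 250051_at had 32.1 and 31.4 in steroid against 23.3 and 13.9 in mock tips. AT3G19550, AT5G13400, AT3G25410 and 250051_at were the 4 members whose steroid mean on day 7 did not exceed that of day 3, the other 18 lying above it. The mock mean was above that of day 3 in 12 of the 22 members.

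AT4G38120 kept a similar difference throughout, at 0.60, 0.65 and 0.60 in log2 on days 1, 3 and 7. Its steroid arrays gave 31.5 and 36.9 on day 1, 28.0 and 21.1 on day 3, then 24.7 and 35.6 on day 7. Its mock arrays gave 20.5 and 21.6 on day 1, 14.3 and 13.6 on day 3, then 20.6 and 15.8 on day 7. It lay close to every limit of the rule. The probe set 265058_s_at, whose suffix marks probes shared by several transcripts, had 150 and 204 in steroid against 74.3 and 134 in mock tips on day 7, and no single gene can be assigned to it.

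The limits of the rule ran through a continuous range of values. The members nearest above the day 3 limit were 265058_s_at (0.63), AT5G13400 (0.65) and AT4G38120 (0.65), and just below it lay AT2G35310 (0.575), AT1G06420 (0.551) and AT5G41050 (0.539). For day 7, EXO (0.584), AT4G38120 (0.605) and CXE18 (0.625) stood just inside, and AT1G33660 (0.563), AT5G01075 (0.562) and AT4G18670 (0.542) just outside. For the steroid day 7 signal, 263907_at (27.6), AT4G38120 (30.2) and AT3G46770 (31.7) were just inside, and AT1G31310 (24.2), 253110_at (24.0) and 262354_at (21.5) just outside. AT2G35310, listed in the annotation among the B3-domain REM genes, thus missed the list on day 3 while its day 7 difference was 1.49.

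Day 1 asked whether the members already differed a day after treatment. They mostly did not do so in a way that this design can detect, and the signs of their differences were mixed. Whether the members differed from each other on day 1 was not tested. The steroid mean was above the mock mean in 15 of 22 members and below it in 7, with a median difference of 0.32 and a range from -1.30 to 1.38. Among all tested probe sets 47.1% had a positive day 1 difference and the median was -0.03, and among the 11340 that reached the signal limit of the rule 44.1% were positive with a median of -0.05. Both steroid arrays lay above both mock arrays in 4 members: AT3G19550, AT2G47010, AT1G47610 and AT4G38120. This occurred in 14.1% of all tested probe sets and in 12.1% of those that reached the signal limit. Both steroid arrays lay below both mock arrays in 6 members: AT1G02190, AT3G46770, 245035_at, 267488_at, AT5G13400 and 250051_at. Among all tested probe sets this share was 17.1%, and among those that reached the signal limit 18.4%. The share of 4 in 22 is therefore near the background, and so is that of 6 in 22.

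limma, fitted to the 4 day 1 arrays over all 16511 tested probe sets, called 0 members and 0 probe sets in all (0%) at an adjusted p of 0.05. The smallest adjusted p of any member was 0.999. At an unadjusted p under 0.05 it found 2 members, against 3.13% of all tested probe sets. These were AT3G19550, higher by log2 1.38 (SE 0.32, unadjusted p of 0.00187, 95% interval 0.66 to 2.10), and AT1G02190, lower at log2 -1.30 (SE 0.56, unadjusted p of 0.0442, 95% interval -2.56 to -0.04). In a fit of all 12 arrays limma called 3 probe sets on day 1 (0.0182%) and again 0 members, with 2 members at an unadjusted p under 0.05 against 8.32% of all, and a smallest adjusted p of 0.428. The spread in that fit also comes from days 3 and 7, which the rule used. The 95% interval of a member's day 1 difference, which is not adjusted for the number of probe sets, had a median half-width of 1.10. Differences of 2-fold could therefore not be detected for most members even before adjustment. After adjustment over 16511 probe sets only larger differences could be called, so 0 calls do not show that the members were unchanged. With 2 arrays in each group, the smallest two-sided p of an exact permutation test is 0.333.

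**Figure D3:**
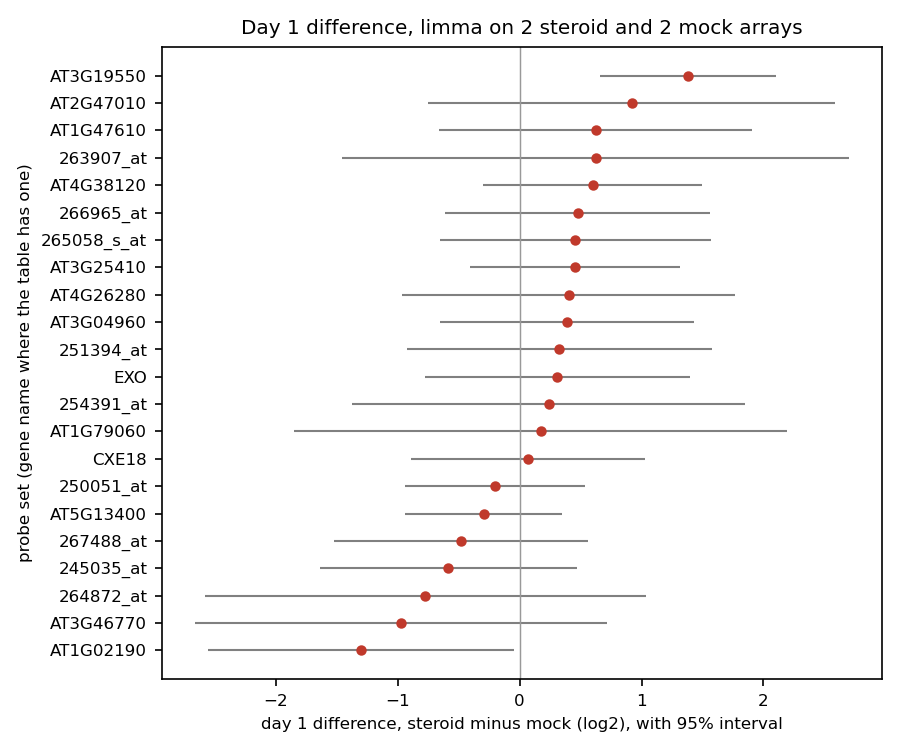
Day 1 difference, steroid minus mock, in log2 (points) with its 95% interval from limma on 2 steroid and 2 mock arrays (lines), for each of the 22 members, sorted by value. The intervals of AT3G19550, from 0.66 to 2.10, and of AT1G02190, from -2.56 to -0.04, lie on one side of 0, and those of the other 20 span it.

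The day 1 values depended on single arrays. Mock replicate 1 was read in scan 3, and the other 3 day 1 arrays in scan 5. Within scan 5 the difference was above 0 in 14 of 22 members with a median of 0.47, AT3G19550 then standing at 1.06 and AT1G02190 at -0.66. Without mock replicate 2 the median was 0.04 and 12 of 22 members were positive. Taking the arrays that share a number, steroid exceeded mock in both numbers for 8 members and lay below it in both for 6. For 264872_at the 2 numbers gave -2.00 and 0.46. Shares over all probe sets were not taken for the counts in this paragraph, so they cannot be read against a background.

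The 8 probe sets left out of the members passed the same rule but differed from them on day 1. In 8 of these 8 both steroid arrays already lay above both mock arrays, against 4 of the 22 members, and their median day 1 difference was 1.41, against 0.32 in the members. They were set aside with results of these arrays known, so the contrast is a description. They also stood further apart later, with medians of 1.90 on day 3 and 2.41 on day 7, against 0.81 and 1.04 in the members. Probe sets that met the mirrored rule, lower on days 3 and 7, numbered 33. For that rule the signal limit applied to the mock mean on day 7. The day 1 median of these 33 was -0.34, with 23 of 33 negative and 10 with both steroid arrays below both mock arrays. Among all tested probe sets 47.1% had a positive day 1 difference. Both steroid arrays lay above both mock arrays in 14.1% of them and below in 17.1%.

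**Figure D4:**
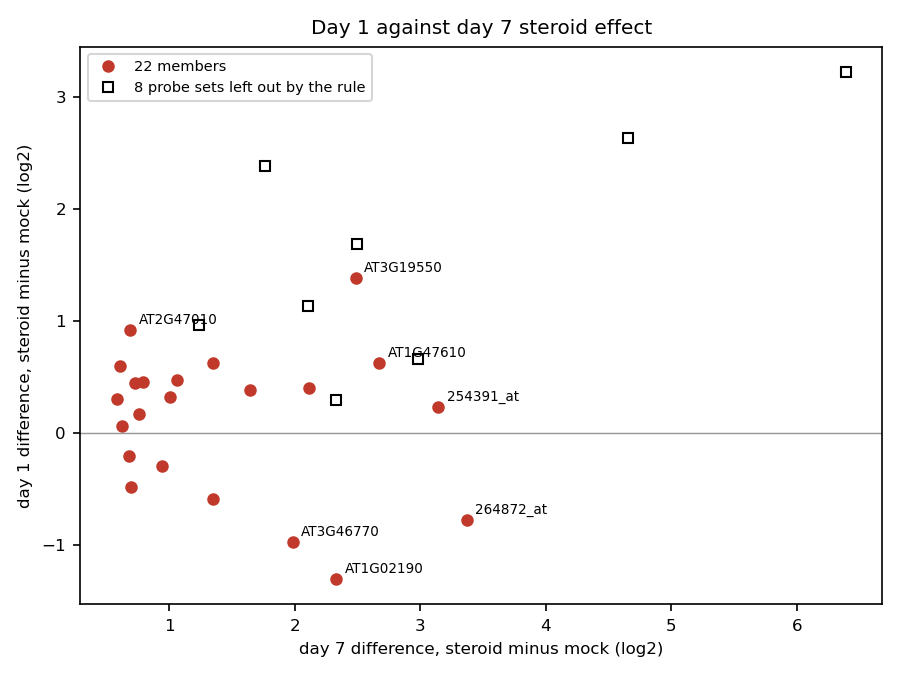
Day 7 difference (horizontal axis) against day 1 difference (vertical axis), both steroid minus mock in log2, for the 22 members (circles) and the 8 probe sets left out by the rule (squares). The squares all lie above 0 on day 1, while the circles spread from -1.30 to 1.38, with 264872_at, AT3G46770 and AT1G02190 low on day 1 and at 1.99 or more on day 7.

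Lists of floral regulators were used to place the members among known genes. Of 60 loci in 4 lists (stamen regulators, tapetum and pollen wall, carpel and ovule, organ polarity and boundary), 19 are named on the array and 10 were tested. None of the 13 named members is in these lists, and the 9 unnamed members could not be compared with them. Both steroid arrays lay above both mock arrays on days 3 and 7 in 2 of the 19, AT1G33430 of the pollen wall list and NGA1, a regulator of style development, against 3.07% of all probe sets on the array. AT1G33430 had log2 differences of 1.13 and 0.66 on days 3 and 7, and NGA1 had 1.22 and 1.04. Neither reached the signal limit of the rule. Both steroid arrays lay below both mock arrays on days 3 and 7 in 1 of the 19, against 4.31% of all probe sets on the array. This was INO, needed for the outer integument of the ovule, with log2 differences of -0.23 and -0.14. On day 1, 0 of the 19 had both steroid arrays above both mock arrays and 3 had both below: ROXY1, NUB and PTL. The shares over all tested probe sets were 14.1% above and 17.1% below, so 3 of 19 is near the background. NUB, a zinc finger regulator of stamen and carpel outgrowth, had -0.66, 0.91 and 1.80 on days 1, 3 and 7, and its groups overlapped on day 3. Of the other tested stamen genes, ROXY1 went the other way on days 3 and 7. It had -1.22, -0.39 and -0.57, with both steroid arrays below both mock arrays on day 7 too. EMS1 had the signs of NUB on each day but smaller values, at -0.05, 0.49 and 0.27. Both its steroid arrays lay above both mock arrays on day 3, and its groups overlapped on day 7.

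Summed scaled signals of the tapetum and pollen wall list, with only 2 named genes, were 16.1 and 13.2 in steroid against 8.01 and 11.3 in mock tips on day 7. Most of this was AT1G33430, as AT5G07230 gave 0.83 and 0.38 in steroid against 0.73 and 3.99 in mock tips. On day 3 they were 21.1 and 24.7 in steroid against 4.96 and 6.62 in mock tips, and on day 1 26.4 and 8.44 in steroid against 5.55 and 35.4 in mock tips. The carpel and ovule sum was 638 and 534 in steroid against 469 and 493 in mock tips on day 7, with overlapping groups on days 1 and 3. Most of that sum was ALC, at 492 and 409 in steroid against 364 and 382 in mock tips on day 7. The stamen sum was 155 and 138 in steroid against 166 and 164 in mock tips on day 1, both steroid arrays lying below both mock arrays, and its groups overlapped on days 3 and 7. The polarity sums overlapped between treatments on every day. As a check for other tissue, the 2 named green leaf genes, RCA and LHCB4.1, summed to 853 and 942 in steroid against 948 and 943 in mock tips on day 7, and to 208 and 191 in steroid against 237 and 252 in mock tips on day 3. They were thus not higher in steroid tips on the days when the members were. None of the 3 mature pollen loci is named on the array. The part of these lists in the members' differences was not tested.

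Words in gene names and synonyms could show little on shared function, since 7970 of 9232 tested named probe sets have only a locus name. Of 19 word classes, including kinases, transporters, cytochromes P450, cell wall and hormone words, 2 held a member: EXO in the cell wall class and CXE18 in the esterase class. Those classes made up 0.325% and 0.0975% of the 9232 tested probe sets with a name. EXO and CXE18 are also the only 2 members named beyond the locus. The words missed the transporter family of AT5G13400 and the B3 domain of AT3G46770, so the empty classes say nothing on function. From background knowledge the named genes cover different roles: a scaffold type protein (AT1G47610), a B3-domain protein (AT3G46770), enzymes of sulfation and wax synthesis (AT4G26280 and AT1G02190), membrane carriers (AT5G13400 and AT3G25410) and genes of expansion and ester hydrolysis (EXO and CXE18). No role is given for AT3G19550, AT3G04960, AT2G47010, AT1G79060 and AT4G38120, nor for the 9 unnamed probe sets.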

How the data were processed

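The deposited values are linear signal intensities, 1 for each array and probe set, made by the authors with MAS5 per the submitters' processing notes; version, target and scaling are not given in the sources used here. Array medians differed, so each array was multiplied to a common median of 24.8, and differences were taken on log2(signal + 4.35), which understates ratios of weak signals. SDs are not given for pairs of arrays whose 2 values are printed. Probe sets were tested when at least 2 of 12 arrays exceeded their own 40th percentile. The day 1 test was limma 3.58.1 in R 4.3.3 (eBayes with a variance trend, 2 residual degrees of freedom, two-sided, Benjamini-Hochberg over 16511 probe sets, threshold 0.05) and was checked on simulated arrays. Scans were numbered from the scan dates in the array files. Members and gene lists were chosen with earlier results of these data known. The naming rule took the 20 largest mean differences, the day 1 extremes, members of function classes and those next to a limit, and covers all 22. Alternatives were scaling, offset, filter, variance trend, arrays in the fit, blocks and leaving out arrays. The number of arrays limits the precision. Probe and promoter sequences were not used here.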

Additional observations from a re-analysis of the deposited data

Results flagged for a closer look

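In 6 members both steroid arrays lay below both mock arrays on day 1 and above both on days 3 and 7, so every steroid array stood on opposite sides on the early and the later days. The day 1 log2 differences were -1.30 for AT1G02190, -0.975 for AT3G46770, -0.584 for 245035_at, -0.481 for 267488_at, -0.292 for AT5G13400 and -0.201 for 250051_at. All 6 stayed below 0 whichever single day 1 array was left out, as day 1 arrays that do not overlap fix in advance. Their size did depend on single arrays, most of all on the 2 mock arrays. For 250051_at the steroid arrays mattered about as much. Over these fits AT3G46770 kept a value between -1.22 and -0.73, and 245035_at between -0.84 and -0.33. Without mock replicate 1, which leaves scan 5 alone, 267488_at stood at -0.0566, AT1G02190 at -0.662 and AT5G13400 at -0.505. Without mock replicate 2, 267488_at stood at -0.906, AT5G13400 at -0.0804, 245035_at at -0.329 and AT1G02190 at -1.94. Without steroid replicate 2, 250051_at stood at -0.133. The later direction was fixed by the choice of members, and the difference between days was not tested. On day 1 alone, 17.1% of all tested probe sets had both steroid arrays below both mock arrays. The GAPDH ratios of the day 1 arrays are given above, and their part in these values was not tested.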

How the results depend on the processing

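limma called 0 members on day 1 under all 13 alternatives run. With the replicate number as a block, limma called 0 members and 2 probe sets, and the smallest adjusted p of a member was 0.0545, that of AT3G19550. Same-numbered arrays share only a number: their deviations correlated at 0.124, 0.0996 and 0.0883 across probe sets on days 1, 3 and 7. Members whose steroid arrays both exceeded both mock arrays on day 1 numbered 7 in the deposited values without scaling, and from 6 to 12 when 1 array was left out, fewer arrays making the condition easier. Shares over all probe sets were not taken under these settings, so these counts cannot be read against a background. The day 1 median ran from 0.04 to 0.47 and the positive members from 12 to 15 over all alternatives. The number of members was 37 without scaling, of which 11 were among the 22, 4 with a difference of at least 1, and 13 with a signal of at least 50. Without 1 array of days 3 or 7 it ran from 18 to 34, the highest without day 3 mock replicate 2, with 17 shared, whereas the fewest were shared without day 3 mock replicate 1, 14 of 23. Quantile normalization gave 27, with 21 shared, and halving or doubling the offset 27 and 19. Under all 12 alternatives other than those stricter limits on difference and signal, the members kept were 254391_at, AT1G47610, 264872_at, AT4G26280, AT3G46770 and AT1G02190, whereas AT4G38120 was kept under 6 and EXO under 7. Quantile normalization moved the day 3 median of all tested probe sets to -0.00776, and without scaling the day 7 median was -0.288.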
